A study of Homo sapiens with 4 samples.

Results

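The interleukin-6 and interleukin-12 family genes were examined on bead arrays of THP-1 macrophages. The 10 genes are the ligand genes IL6, OSM and LIF, the subunit genes IL12A, IL12B, IL23A, EBI3 and IL27, and the receptor genes IL6R and IL6ST. They were taken as every probe that the platform annotation assigns to one of these symbols, which gave 13 probes of 47228 and 10 genes of 20045. IL6R had 2 probes, IL6ST had 3 and each other gene had 1. THP-1 is an established human acute monocytic leukemia line, so all arrays come from 1 line. Per the labels' protocols, M1 macrophages were made from M0 macrophages with interferon-gamma (spelled IFN-r there) and lipopolysaccharide (LPS), M2a macrophages with IL-4 and M2c macrophages with IL-10, and the M0 macrophages received none of these. The doses, the durations and the agent by which the monocyte-like cells became M0 macrophages were not given in the labels. Each group has 1 array, so no test was run, no difference has a replicate check, and culture, array and group cannot be told apart.

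IL-6, oncostatin M (OSM) and leukemia inhibitory factor (LIF) are secreted helical cytokines that signal through the shared receptor chain gp130, the product of IL6ST. IL-6 binds first to the IL-6 receptor encoded by IL6R, and the complex then engages gp130 and activates JAK kinases and STAT3. The IL-12 family cytokines are heterodimers that share subunits: IL-12 joins p35 (IL12A) to p40 (IL12B), IL-23 joins p19 (IL23A) to p40, IL-27 joins p28 (IL27) to EBI3, and IL-35 joins p35 to EBI3. Macrophages and dendritic cells make many of these cytokines after microbial stimulation, where IL-12 drives interferon-gamma production by T cells and natural killer cells and IL-23 sustains T cells that make IL-17.

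The promoter windows of IL6, IL23A and EBI3, the members with the largest folds or lower bounds on M1 against M0, are shown with that of IL12B, whose probe was detected on no array although its product pairs with that of IL23A. Each window holds 250 bases before and 50 bases after the annotated start, 5′ to 3′ on the gene's strand, from RefSeq on GRCh38.p14. The coordinates are chr7:22726950-22727249 on the plus strand for IL6, chr12:56338634-56338933 on the plus strand for IL23A, chr19:4229273-4229572 on the plus strand for EBI3 and chr5:159330438-159330737 on the minus strand for IL12B. Capitals mark matches, on either strand, to the NF-kappaB consensus, the AP-1 site TGANTCA, the C/EBP core TTGCNNAA, the interferon response element GAAANNGAA, the STAT site TTCNNNGAA and the TATA box TATAAA.
IL6 promoter window: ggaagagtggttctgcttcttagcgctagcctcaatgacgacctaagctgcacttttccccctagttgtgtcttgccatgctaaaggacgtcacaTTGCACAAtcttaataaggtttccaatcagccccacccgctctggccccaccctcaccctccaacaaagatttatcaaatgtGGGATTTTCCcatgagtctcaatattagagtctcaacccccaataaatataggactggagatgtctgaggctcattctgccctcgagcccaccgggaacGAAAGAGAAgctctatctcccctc
IL23A promoter window: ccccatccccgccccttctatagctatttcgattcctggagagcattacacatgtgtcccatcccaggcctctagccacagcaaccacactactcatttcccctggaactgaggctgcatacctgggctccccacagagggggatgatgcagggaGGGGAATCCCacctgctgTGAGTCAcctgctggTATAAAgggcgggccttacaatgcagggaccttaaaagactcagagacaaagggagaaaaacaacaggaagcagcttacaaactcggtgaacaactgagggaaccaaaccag
EBI3 promoter window: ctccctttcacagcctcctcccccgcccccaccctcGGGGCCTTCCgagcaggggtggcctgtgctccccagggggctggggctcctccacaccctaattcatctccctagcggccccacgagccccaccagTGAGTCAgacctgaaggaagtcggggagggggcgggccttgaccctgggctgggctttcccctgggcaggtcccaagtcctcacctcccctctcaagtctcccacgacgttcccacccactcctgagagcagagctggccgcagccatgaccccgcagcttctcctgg
IL12B promoter window: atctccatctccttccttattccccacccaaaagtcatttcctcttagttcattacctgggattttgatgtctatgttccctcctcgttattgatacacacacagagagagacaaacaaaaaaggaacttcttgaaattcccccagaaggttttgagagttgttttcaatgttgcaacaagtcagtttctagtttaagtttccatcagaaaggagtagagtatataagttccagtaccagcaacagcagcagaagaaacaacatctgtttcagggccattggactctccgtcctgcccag
The IL6 window held an NF-kappaB match, GGGATTTTCC, that began 73 bases before the annotated start, and a C/EBP match, TTGCACAA, that began 155 bases before it, besides an interferon response element match, GAAAGAGAA, 26 bases after it. The IL23A window held an NF-kappaB match, GGGGAATCCC, an AP-1 match and a TATA box, which began 95, 77 and 62 bases before the start and did not overlap. The EBI3 window held an NF-kappaB match, GGGGCCTTCC, and an AP-1 match, which began 214 and 118 bases before the start. The IL12B window held no match to any of the 6 motifs as searched, and sites that depart from these forms were not counted. Of the 10 members, 7 matched a window in the table, and 5 of these 7 held an NF-kappaB match (IL6, IL12A, IL23A, EBI3 and IL6ST), against 11.3% of 35116 windows of all genes. The 5 include IL12A and IL6ST, neither of which rose on any array. AP-1 matches stood in 3 of the 7 (IL23A, EBI3 and IL6R), against 7.71% of all windows. Interferon response element matches stood in IL6 and IL12A (8.11% of all windows), the C/EBP match in IL6 alone (10.5%), the TATA box in IL23A alone (11.5%) and the STAT site in 0 of the 7 (7.66%). These matches describe letters in the windows and not bound sites.

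A probe counted as detected when its deposited detection p-value, which compares it with the negative-control beads, was below 0.01. Of the 10 genes, 7 were detected on at least 1 array and 3 on all arrays (EBI3, IL6R and IL6ST). The M1 array detected 7 of the 10, the M2a array 3, the M2c array 3 and the M0 array 4. IL12A, IL12B and LIF were detected on no array. A gene was called higher or lower when its normalized intensities on the arrays compared lay at least 2-fold apart, or 1.0 in log2 units, and its probe was detected on at least 1 of them, and such genes are said to have risen or fallen.

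**Figure D1:**
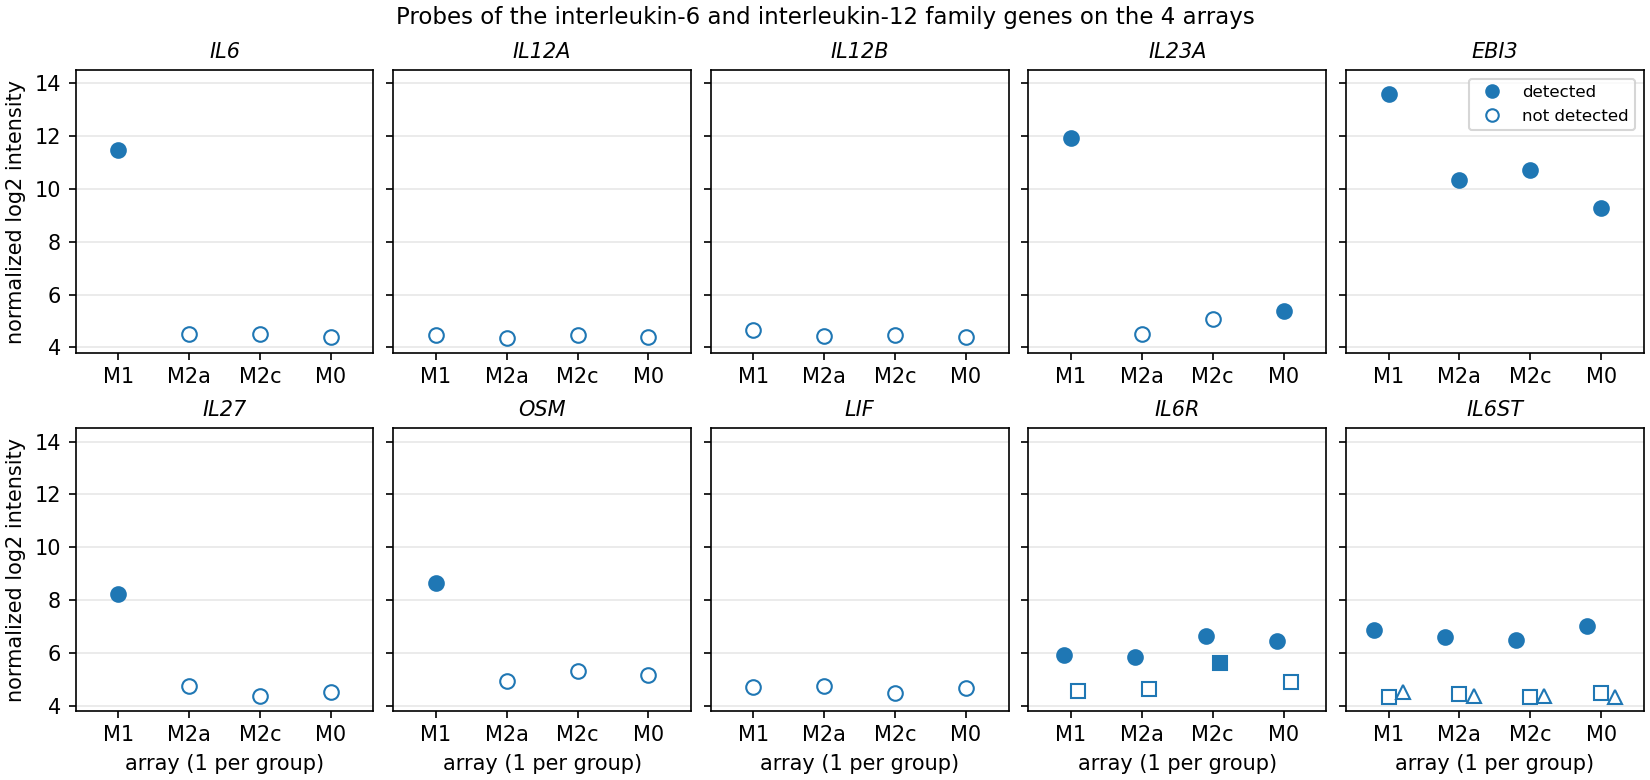
Normalized log2 intensity (y axis) of each probe of the 10 genes on the M1, M2a, M2c and M0 arrays (x axis), with filled symbols for detected probes, open symbols for undetected ones and a symbol shape for each probe of a gene. IL6, IL23A, IL27 and OSM stand apart on the M1 array, and EBI3 is detected on all arrays and is brightest on M1.

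The first comparison asked what interferon-gamma with LPS did to these genes. By the main normalization, IL6, IL23A, EBI3, IL27 and OSM rose on the M1 array, with folds or lower bounds of 7.71 to 95.2. The receptor genes IL6R and IL6ST did not pass 2-fold. In all, 5 of the 7 members tested rose and 0 fell, where 15.0% of the 9986 genes tested rose and 19.0% fell. IL6, IL27 and OSM were tested through their detection on M1 alone, so they could rise but not fall, and the count is a description and no support for a direction.

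IL6 encodes interleukin-6, the founding ligand of the gp130 family and a driver of the acute phase response. Its raw intensity was 2508.2 on M1, 102.8 on M2a, 101.5 on M2c and 98.1 on M0, and the detection p was 0 on M1 and 0.484, 0.557 and 0.735 on M2a, M2c and M0. Only the M1 array read above background. By the main normalization, IL6 was at least 74.6-fold higher on M1 than on M0 (log2 difference 4.95 at the weakest other setting). This bound sets the normalized M1 value against the lowest normalized value of any detected probe on the M0 array, because the IL6 probe itself was at background there.

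OSM encodes oncostatin M, a gp130 ligand made by activated monocytes and macrophages. Its raw intensity was 361.8 on M1, 116.6 on M2a, 130.0 on M2c and 124.1 on M0, with detection p of 0, 0.0688, 0.0143 and 0.0247. The M1 array was the only one past the 0.01 threshold, while M2c and M0 read between 0.01 and 0.05. OSM was at least 10.4-fold higher on M1 than on M0, by the same kind of bound. The OSM log2 difference was 2.01 at the weakest other setting.

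LIF encodes leukemia inhibitory factor, which acts on stem cells and many tissues through the LIF receptor and gp130. Its raw intensity was 102.0 on M1, 110.7 on M2a, 100.6 on M2c and 108.7 on M0, and its lowest detection p was 0.20, on M2a. All readings lay at background, so no fold is given, and its 1 probe does not show that the transcript was absent.

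The IL-12 family subunits divided into those that rose on M1 and those at background on every array. IL23A encodes p19, the subunit particular to IL-23. Its raw intensity was 3509.4 on M1, 102.3 on M2a, 122.7 on M2c and 131.4 on M0, with detection p of 0, 0.517, 0.0260 and 0.00779. IL23A was thus bright on M1, just inside the threshold on M0 and outside it on M2a and M2c. It rose 95.2-fold on M1 against M0 (6.57 on the log2 scale, 4.99 to 7.07 under the other settings for background and scaling). IL12B encodes p40, the partner of p19 in IL-23 and of p35 in IL-12. Its raw intensity was 101.7 on M1, 97.8 on M2a, 101.4 on M2c and 97.0 on M0, with a lowest detection p of 0.256, on M1. IL12A, which encodes p35, read 93.6 on M1, 94.4 on M2a, 100.5 on M2c and 97.7 on M0, with a lowest detection p of 0.590, on M2c. The p19 transcript was therefore measured on M1 without a detected reading for p40, and neither transcript of IL-12 was detected on any array. IL12A and IL12B had 1 probe each, so a probe that reads poorly cannot be told apart from a transcript at background.

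The transcripts of both IL-27 subunits were detected on M1. EBI3 encodes the subunit that IL-27 shares with IL-35. Its raw intensity was 12727.0 on M1, 1488.9 on M2a, 1909.6 on M2c and 742.4 on M0, with a detection p of 0 on all arrays. The order of the EBI3 levels was M1, M2c, M2a and M0. On M1, EBI3 rose 20.1-fold over M0 (4.33 on the log2 scale, 4.15 to 5.04 under the other settings). IL27, which encodes p28, read 281.6 on M1, 111.0 on M2a, 93.6 on M2c and 103.3 on M0, with detection p of 0, 0.187, 0.849 and 0.491. Only the M1 array detected IL27, which was at least 7.71-fold higher there than on M0 by the main normalization. The IL27 log2 difference was 1.92 at the weakest other setting.

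By the probe with the highest mean, IL6R and IL6ST stayed within 2-fold in every comparison by the main normalization. IL6R encodes the IL-6-binding receptor chain. Its brighter probe had raw intensities of 125.8 on M1, 145.5 on M2a, 207.3 on M2c and 184.0 on M0 and was detected on all arrays, with a normalized log2 difference from M0 of -0.53 on M1, -0.58 on M2a and 0.21 on M2c. The dimmer IL6R probe read 97.2, 106.7, 143.0 and 115.6 on M1, M2a, M2c and M0, was detected on M2c alone, and was 0.75 higher on M2c than on M0 on the log2 scale. Both IL6R probes read highest on M2c, but neither passed 2-fold over M0. Against M2c, the dimmer probe was past 2-fold lower on M1 and on M2a, at -1.08 and -1.02 on the log2 scale, with readings at background on M1 and M2a. The brighter probe was at -0.75 and -0.79 in these comparisons.

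IL6ST encodes gp130, the signalling chain shared by the family. The IL6ST probe designed on a GenBank mRNA read 160.1 on M1, 183.7 on M2a, 193.2 on M2c and 233.0 on M0 and was detected on all arrays. Its normalized log2 difference from M0 was -0.15 on M1, -0.43 on M2a and -0.53 on M2c, so M0 was highest and no array passed 2-fold. The 2 IL6ST probes annotated to the RefSeq transcript were detected on no array, with raw intensities between 83.9 and 102.1. The IL6ST values therefore rest on 1 of 3 probes.

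**Figure D2:**
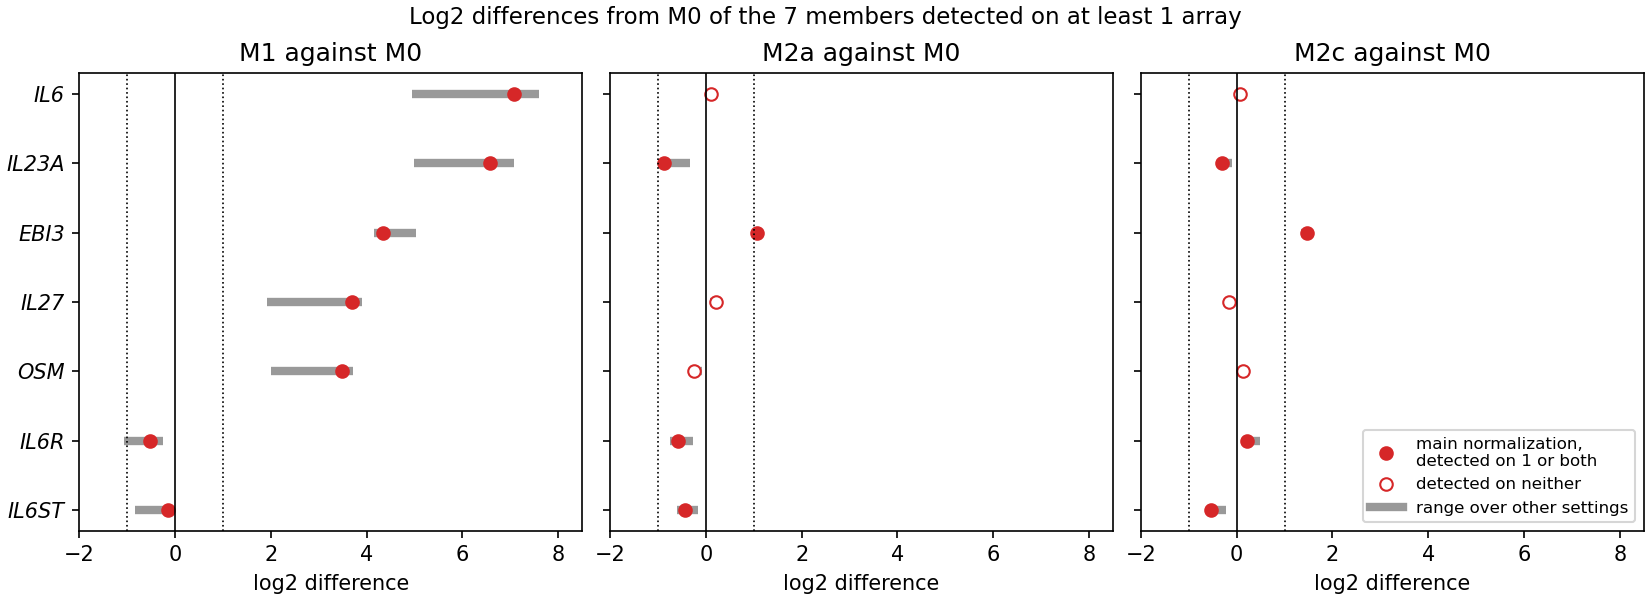
Log2 difference from M0 (x axis) on the M1, M2a and M2c arrays for the 7 members detected on at least 1 array, with the range over the other settings as a grey bar, open circles where neither array detected the gene, and dotted lines at 2-fold. On M1, IL6, IL23A, EBI3, IL27 and OSM lie past 2-fold under every setting plotted, and EBI3 is the member past 2-fold on M2a and M2c by the main normalization. The M1 values of IL6, IL27 and OSM are set against M0 readings that were not detected.

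The second comparison asked what IL-4 did to these genes. EBI3 was the 1 member of 4 tested that rose on M2a, and 0 fell, where 4.09% of 9860 genes tested rose and 5.04% fell. The rise was 2.10-fold (1.07 on the log2 scale), close to the threshold, and it was 0.97 in the authors' deposited normalized table, under 2-fold. IL23A was 0.87 lower on the log2 scale, short of 2-fold, and its M2a reading was at background. The median log2 difference was -0.50 over the 4 members tested and -0.01 over all genes tested. IL6, IL27 and OSM were detected on neither the M2a nor the M0 array.

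The third comparison asked what IL-10 did to them. EBI3 was again the 1 of 4 members tested that rose, and 0 fell, where 0.677% of 9604 genes tested rose and 0.448% fell on M2c. EBI3 rose 2.76-fold (1.47 on the log2 scale, 1.35 to 1.47 under the other settings). IL6R was 0.21 higher, IL23A was 0.30 lower and IL6ST was 0.53 lower on the log2 scale, none of them past 2-fold. The median was -0.04 over the members tested and -0.01 over all genes tested. The comparisons of M1, M2a and M2c with M0 share the M0 array.

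**Figure D3:**
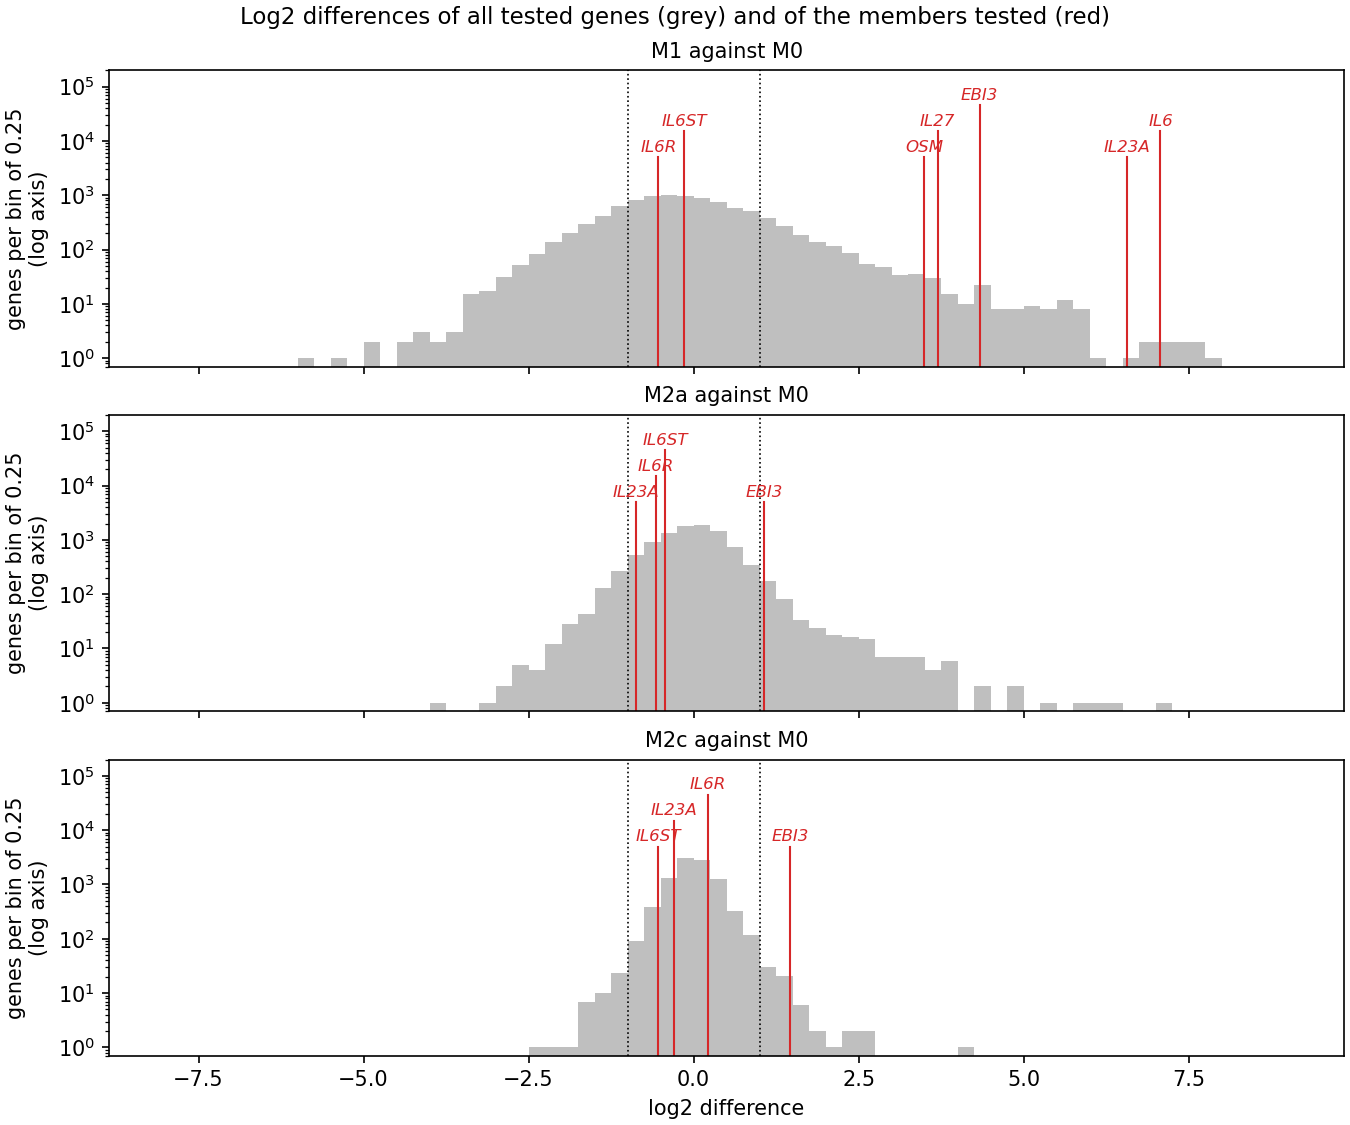
Number of tested genes (y axis, log scale) by log2 difference from M0 (x axis, bins of 0.25) for M1, M2a and M2c, with the tested members as red lines and 2-fold as dotted lines. IL23A at 6.57 and IL6, set against an M0 reading at background, lie in the sparse upper tail on M1. EBI3 lies past 2-fold in each panel, and IL6R and IL6ST lie within 2-fold. On M2c IL6ST, at -0.53, ranked 436 from the lowest of 9604 genes tested.

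The arrays of stimulated cells were also set against each other. The same 5 members were higher on M1 than on M2a, and 0 were lower, where 15.7% of 9791 genes tested were higher and 18.0% lower. EBI3 was 9.61-fold higher on M1 than on M2a (3.26 on the log2 scale), and IL23A was at least 97.1-fold and IL6 at least 70.4-fold higher. On M1 against M2c, again IL6, IL23A, EBI3, IL27 and OSM were higher and 0 were lower, where 16.3% of 9676 genes tested were higher and 21.4% lower. EBI3 was 7.30-fold higher on M1 than on M2c (2.87 on the log2 scale), IL23A at least 90.0-fold and IL6 at least 65.2-fold. These bounds are those of the main normalization. At the weakest settings the log2 differences of IL23A and IL6 were 5.33 and 4.87 against M2a, and 5.09 and 4.89 against M2c. In both comparisons IL6, IL23A, IL27 and OSM were tested through their detection on M1 alone. They could be higher but not lower, so the counts are descriptions and no support for a direction. Between M2a and M2c none of the 3 members tested passed 2-fold by its probe with the highest mean, where 4.81% of 9607 genes tested were higher on M2a and 6.98% lower. EBI3 was 0.40 lower and IL6R 0.79 lower on M2a than on M2c on the log2 scale.

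Other genes of the pathway were taken from lists. A list gene detected on only 1 of the 2 arrays compared could pass only as higher on that array. The called genes given with an "at least" fold are of this kind, so the list counts are descriptions and no support for a direction. Among 4 other ligand genes of the IL-6 family with a named probe, IL11 was the 1 detected, on M0 alone (detection p 0.00909), and it did not pass 2-fold on any array. Of 8 further receptor genes of both families, 3 were detected on at least 1 array, and on M1 2 of these rose and 1 fell, where 15.0% of all genes tested rose and 19.0% fell. On M1, IL12RB1, the common chain of the IL-12 and IL-23 receptors, rose by 1.71 (1.36 for its other detected probe) and IL12RB2, the second chain of the IL-12 receptor, by 1.23 on the log2 scale, while IL27RA, the IL-27 receptor chain, was at least 3.19-fold lower (-0.92 on the log2 scale at the weakest setting, under 2-fold). IL12RB1 read 263.3 on M1, 219.4 on M2a, 182.0 on M2c and 180.6 on M0 in raw intensity, and IL12RB2 read 218.1, 217.4, 237.9 and 186.5 on the same arrays. The raw gap of IL12RB2 between M1 and M0 was thus small, and its log2 difference fell under 2-fold in some settings (lowest 0.50). IL27RA read 116.7 on M1, 350.0 on M2a, 211.5 on M2c and 261.3 on M0, so the IL-27 receptor chain was lowest on the array where both IL-27 subunit transcripts were detected. OSMR, LIFR and IL23R, chains of the oncostatin M, LIF and IL-23 receptors, were detected on no array. On M2a and M2c 0 of the 3 receptor genes tested passed, near the shares over all genes tested. On M2a 4.09% of these rose and 5.04% fell, and on M2c 0.677% rose and 0.448% fell.

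Of 10 tested JAK-STAT genes, which signal below these receptors, 2 rose and 2 fell on M1, near the shares over all genes tested (15.0% rose and 19.0% fell). Their median log2 difference was 0.28, and 1 rose and 1 fell in the authors' deposited normalized table. STAT4, which relays IL-12 signals, rose by 3.27 and JAK2, a kinase of gp130 and IL-12 receptor complexes, by 1.55 on the log2 scale, while PTPN11, the phosphatase SHP2, fell by 2.21 and STAT5B was at least 1.48-fold lower. JAK2 and STAT5B were under 2-fold at their weakest settings (0.84 and -0.47). STAT3, the main transcription factor below gp130, was 0.80 higher by its probe with the highest mean, short of 2-fold, while its other detected probes were 1.08 higher, past 2-fold, and 0.37 higher. On M2a PTPN11 fell by 1.19, the 1 of 10 to pass (5.04% of all genes tested fell). On M2c 0 of 10 passed, near the shares over all genes tested (0.677% rose and 0.448% fell). Of 8 tested feedback inhibitors 3 rose and 0 fell on M1, where 15.0% of all genes tested rose and 19.0% fell. SOCS1 was at least 10.2-fold higher and SOCS2 at least 2.40-fold, and SOCS3, which blocks gp130 signalling, rose by 1.11 on the log2 scale (2.25 for its other detected probe). SOCS1 alone kept its call with an offset of 50, without background correction or in the authors' deposited normalized table. Its log2 difference on M1 was 2.10 at the weakest setting. On M2a SOCS1 was at least 6.26-fold higher and CISH, an inhibitor of STAT5 signalling, at least 6.56-fold higher, 2 of 8 tested where 4.09% of all genes tested rose, and on M2c 0 of 6 passed. SOCS1 and SOCS2 on M1, and SOCS1 and CISH on M2a, were set against undetected M0 readings, so they could rise but not fall.

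Targets of IL-6 and STAT3 were mixed. Of 17 tested on M1 8 rose and 2 fell, where 15.0% of all genes tested rose and 19.0% fell, with a median log2 difference of 0.97. The count that rose was 5 without background correction, in the authors' deposited normalized table and with arrays scaled to the median of all probes, where the list's median was 0.41. The largest rises on the log2 scale were those of the adhesion molecule ICAM1 (4.42), the NF-kappaB cofactor BCL3 (3.14), the AP-1 factor JUNB (2.46) and the kinase PIM1 (2.11). Those that fell were MYC (-1.38, and -1.05 for its other detected probe) and FOS (-1.22). ICAM1 is also induced by interferon-gamma and by NF-kappaB. On M2a 2 of 17 rose and 3 fell (4.09% and 5.04% of all genes tested): ICAM1 rose by 2.23 and FGL2, a fibrinogen-like protein, by 2.28, FOS fell by 2.20, and the acute phase protein haptoglobin, HP, was at least 2.16-fold lower (-0.59 at the weakest setting). On M2c HP was at least 2.00-fold and the growth factor VEGFA at least 1.89-fold lower, 2 of 17 tested where 0.448% of all genes tested fell, but 0 of them passed with an offset of 50 or in the authors' deposited normalized table. HP, which IL-6 induces in liver, was not past 2-fold on M1 (-0.01).

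Transcription factors that act on the IL6 and IL-12 family genes rose on M1 in 10 of 14 cases, with 0 falls, where 15.0% of all genes tested rose and 19.0% fell. Their median log2 difference was 2.14, but 1.04 in the authors' deposited normalized table, where 9 rose, and 1.17 with the mean over all probes of each gene. BATF2 rose by 4.33, IRF1 by 3.99, the NF-kappaB subunit gene NFKB2 by 3.58 (3.53 for its other detected probe) and ATF3 by 2.83. With arrays scaled to the median of all probes 8 rose and 1 fell. REL, among those that rose, was detected on M1 and not on M0, so it could not fall. On M2a ATF3 rose by 1.63 and NFKBIZ, a nuclear cofactor needed for IL6 induction in mouse macrophages, fell by 1.48. This was 1 of 13 in each direction (4.09% and 5.04% of all genes tested). The mean over all probes of each gene put ATF3 and NFKBIZ at 0.58 and -0.64. On M2c 0 of 13 passed, near the shares over all genes tested (0.677% rose and 0.448% fell). Genes of ligand and receptor shedding and of cytokine mRNA decay had 4 of 6 higher and 0 lower on M1 (median 1.94), where 15.0% of all genes tested rose and 19.0% fell. Those higher numbered 3 in the authors' deposited normalized table, and with arrays scaled to the median of all probes 4 were higher and 1 lower. ZC3H12A, the nuclease regnase-1 that degrades IL6 mRNA, rose by 3.51, and RHBDF2, which matures the sheddase ADAM17, by 2.06 (2.54 and 2.15 for its other detected probes). ZFP36, which promotes decay of cytokine mRNAs, rose by 1.98 and ARID5A, which stabilises IL6 mRNA, by 1.91 (0.10 for its other detected probe, and 0.91 at the weakest setting). ADAM17 itself, which can cut the IL-6 receptor from the cell surface, was 0.11 higher and did not pass. On M2a and M2c 0 of these 6 passed by the probe with the highest mean, near the shares over all genes tested. Those shares were 4.09% higher and 5.04% lower on M2a, and 0.677% and 0.448% on M2c. Other probes of ADAM10 and ARID5A, detected on 3 arrays and on 1, were at -1.14 and 1.07 on M2a, past 2-fold. The probes with the highest mean of these genes were at -0.77 and -0.59 there.

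**Figure D4:**
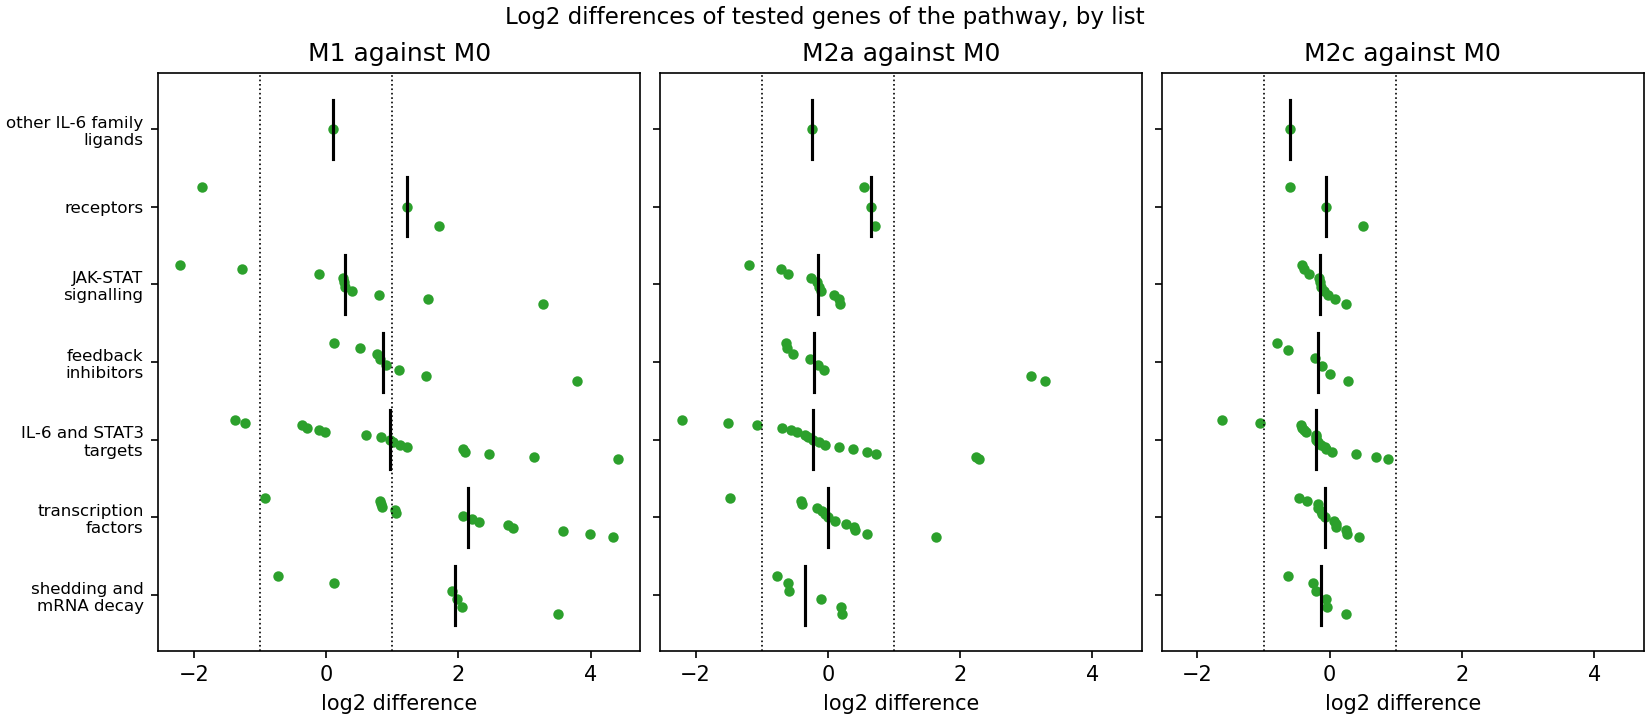
Log2 difference from M0 (x axis) of the tested genes in each pathway list on the M1, M2a and M2c arrays, with each point 1 gene, the black bar the list's median and dotted lines at 2-fold. On M1 the transcription factors (median 2.14) and the shedding and mRNA decay genes (median 1.94) lie mostly to the right of 2-fold. Most points on M2c lie between the dotted lines, where 0.677% of all genes tested rose and 0.448% fell.

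The members differed in the shape of their pattern across arrays. Likeness was measured as the Euclidean distance between the 3 log2 differences from M0, over 10394 other genes detected on at least 1 array, where a small value means a like pattern. IL6, IL27 and OSM were not detected on M2a, M2c and M0, nor IL23A on M2a and M2c. OSM on M2c and M0 and IL23A on M2c had a detection p between 0.01 and 0.05. The distances of these 4 genes rest on undetected readings and are given as values only. IL6R and IL6ST, both detected on all arrays, lay 0.85 apart. Nearest to IL6 were APOBEC3A, a cytidine deaminase (0.22), CYP27B1, which makes active vitamin D (0.53), and ACOD1, which makes itaconate (0.62). Nearest to IL23A were SERPING1, the C1 inhibitor (0.78), the guanylate-binding protein GBP5 (0.99) and CCL4L1 (1.02), whose probe can read other CCL4 genes. EBI3 had no gene closer than TNFRSF9, the costimulatory receptor 4-1BB (0.96), then NR1H3, the nuclear receptor LXR-alpha (1.001), and the ATP-gated channel P2RX7 (1.03). TNFRSF9, NR1H3 and P2RX7 were each higher on M1 than on M0 by 4.33 to 4.46 on the log2 scale, close to EBI3, but were higher on M2c by 0.47 to 0.64, against 1.47 for EBI3. Nearest to IL27 were WARS1, a tryptophan tRNA ligase (0.07), ETV3L (0.10) and ZC3H12A (0.19), and nearest to OSM were the histone gene H2AC18, whose probe can read a near-identical copy (0.20), ANKRD1 (0.22) and CDC42EP2 (0.25). IL6R lay nearest to MTPN (0.04), PGM2 (0.06) and DLD (0.06), and IL6ST to RABIF (0.08), EMX2 (0.10) and AGO3 (0.12).

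The M1 array detected 27.4% of 47228 probes, the M2a array 30.2%, the M2c array 29.0% and the M0 array 31.4%, with median raw intensities of 102.9, 110.4, 110.9 and 110.7. All 10 macrophage and monocyte markers were detected on each array, with summed raw intensities of 41482 on M1, 67921 on M2a, 55988 on M2c and 68201 on M0. On M1, CD163, CD14, CSF1R, ITGAM and LYZ fell and the Fc receptor FCGR1A rose. These were 5 and 1 of 10 tested, where 19.0% of all genes tested fell and 15.0% rose. CSF1R and LYZ were under 2-fold at their weakest settings (-0.99 and -0.80 on the log2 scale). On M2a, ITGAM rose by 2.37 and ITGAX by 1.13 on the log2 scale (0.91 for ITGAX at the weakest setting), and LYZ fell by 2.07. Of all genes tested on M2a, 4.09% rose and 5.04% fell. On M2c 0 of the 10 passed by the probe with the highest mean, where 0.677% of all genes tested rose and 0.448% fell. The other detected probes of CD163 were 1.06 higher on M2c, past 2-fold, and 0.51 higher. Of 8 T cell and natural killer cell markers 3 were detected on M1, 1 on M2a, 2 on M2c and 1 on M0, with summed intensities between 1121 and 1605, and CD3D, CD3E and CD3G were detected on none. CD2 was at least 1.68-fold higher on M1 (0.36 on the log2 scale at the weakest setting), and NKG7 fell by 1.48 on M2a. Of 6 dendritic cell markers 1 was detected on M1, 3 on M2a, 1 on M2c and 2 on M0, with sums of 2206, 1239, 692 and 760. LAMP3, a marker of mature dendritic cells, rose by 4.43 on M1, where CD1C was at least 1.01-fold lower. By the probe with the highest mean LAMP3 did not pass on M2a or M2c. Its other probe, detected on 3 arrays, was at 5.41 on M1, -1.485 on M2a and -1.19 on M2c, past 2-fold on each. On M2a FCER1A was at least 7.81-fold higher and CD1C rose by 2.25, and CLEC9A, XCR1 and CLEC4C were detected on none. Of 4 B cell markers with a named probe 1 was detected on each array except M0, which had 2, with sums between 495 and 587, and MS4A1 and PAX5 were detected on none. CD79B rose by 1.14 on M1 and 1.08 on M2a, short of 2-fold at the weakest settings (0.38 and 0.48). Of 7 fibroblast and endothelial markers PECAM1 alone was detected, on every array, with sums between 2111 and 2774. The part of these markers in the member differences was not tested.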

How the data were processed

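Total RNA of 1 culture each of M1, M2a, M2c and M0 macrophages was hybridised to Illumina BeadChips. Per the file headers, the authors deposited intensities before and after normalization for 47228 probes, each beside a detection p-value. GenomeStudio is the software named, per the submitters' processing notes, and no version was stated. The deposited normalized intensities stayed linear and were quantile normalized, as each sorted column came within 0.437% of the averaged sorted raw columns, and the value table differed from it in 0 cells. Each detection p-value column stands after the signal column it was assigned to, and its ranks matched that signal best (absolute Spearman correlation 0.991 or more, and 0.860 or less with the other arrays).

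From the raw intensities, background was corrected with neqc of limma 3.58.1 (R 4.3.3, offset 16, negative controls inferred from the detection p-values), followed by quantile normalization and log2. The offset understates differences of dim probes. Of the probes, 30111 carried 1 symbol, 8 several and 17109 were unnamed here, and 30072 symbols were updated by Entrez identifier through RefSeq GRCh38.p14. The probe with the highest mean stood for a gene. A gene was tested if detected on 1 of both arrays at p below 0.01 and called at 2-fold; with 1 array per group there is no p-value. Fold bounds use, on the dim array, the higher of the gene's value and the lowest value of a detected probe. Bounds hold for this normalization.

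Members and lists were chosen with earlier results of these data known. So were the promoter motifs, and the interferon response element was shortened to 9 letters after a longer form had been searched, which added the match in the IL6 window. Named genes are all members, up to 4 called genes per list and comparison with M0, and the 3 nearest genes per member. MYC and FOS are named besides, as the targets of IL-6 and STAT3 that fell on M1. So are the list genes given as not passing or not detected, which were chosen after their values were seen. The procedure was tested on simulated data. The number of arrays limits the precision. Alternatives were an offset of 50, no background correction, the deposited normalized table, scaling to the median of all probes, scaling to the median of probes detected on all arrays (chosen after seeing the data), normalization without the M1 array, a detection p of 0.05, no detection filter and the mean over all probes of a gene.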

Additional observations from a re-analysis of the deposited data

How the results depend on the processing

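Over 203 recomputed log2 differences of 32 tested member differences, 198 kept their direction and their side of 2-fold, or stayed under 2-fold on either side of 0. The rises of IL6, IL23A, EBI3, IL27 and OSM on M1 kept their call under all alternatives run, as did that of EBI3 on M2c. Against M0, the number of members higher on M2a was 0 without background correction and 0 in the authors' deposited normalized table, where EBI3 was 0.97 higher on the log2 scale. With arrays scaled to the median of all probes, 1 member was lower on M1 than on M0, 1 on M1 than on M2c and 1 on M2a than on M2c. It was IL6R in each case, at -1.07, -1.33 and -1.003. That scaling put the median of all genes tested at -0.66, -0.69 and -0.07 in these comparisons, and IL6R at -0.41, -0.64 and -0.93 relative to it. The median on M1 against M0 was -0.19 by the main method and 0.08 with scaling to the probes detected on all arrays. The share of called genes that were higher on M1 than on M0 was 44.0% by the main method, 19.4% with the median of all probes and 61.3% with the median of detected probes. All genes called higher against M0 numbered 1494 on M1, 403 on M2a and 65 on M2c, and 847, 170 and 20 in the authors' deposited normalized table; those lower numbered 1902, 497 and 43, and 796, 125 and 4. No difference has a replicate, and readings near background limit IL12A, IL12B, LIF and the M2a, M2c and M0 values of IL6, IL27 and OSM. No paired analysis was possible because each group has 1 array.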
